A study of Caenorhabditis elegans with 24 samples.

Results

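The change that heat made in rescued animals was set against the change it made in wildtype, gene by gene, as the difference of 2 differences: (37°C minus 20°C in rescued animals) minus (37°C minus 20°C in wildtype). The members are 15 of the 24 libraries of the series, those whose titles name these 2 strains without wildtype replicate 1 at 20°C, whose file was equal to that of another library. The rescued animals were *hlh-30(tm1978)* mutants carrying *rab-3p::HLH-30::GFP* (strain LRL147), after 3 h at 37°C (n = 4) or at 20°C (n = 4). They were compared with wildtype N2 (Bristol) after 3 h at 37°C (n = 4) or at 20°C (n = 3). All animals were harvested on day 1 of adulthood, had developed at 20°C and were fed *E. coli* OP50. The *rab-3* promoter and 3′UTR direct the transgene to neurons, so the rescued animals still lack *hlh-30* function in other tissues, and they also carry the coinjection marker *unc-122p::RFP*. They are 1 transgenic strain, so effects of neuronal HLH-30, of its absence elsewhere and of the strain's own background cannot be told apart in this comparison. Each library was made from a pool of whole synchronized animals, and the study's methods call the replicates independent.

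HLH-30 is the nematode homologue of TFEB, a transcription factor known for switching on lysosome and autophagy genes under stress. The intestine of the worm digests food, stores fat, makes yolk for the oocytes and meets ingested bacteria, and the GATA factor ELT-2 switches on many of its genes. Heat brings on heat shock proteins through HSF-1 and shuts down much of the other transcription in the animal.

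Library totals were 11661889 to 23184409 counts in rescued animals at 37°C and 13261171 to 15845829 at 20°C, and 11207383 to 28091186 in wildtype at 37°C and 13843240 to 14396084 at 20°C. Libraries with more than 20000000 counts were 1 of 4 in rescued animals at 37°C and 0 of 4 at 20°C, against 3 of 4 in wildtype at 37°C and 0 of 3 at 20°C. The *hlh-30* gene had 24.4 to 50.9 CPM (counts scaled by TMM to a common library size) in rescued animals at 37°C and 57.4 to 117 CPM at 20°C, against 15.5 to 20.5 CPM in wildtype at 37°C and 39.9 to 73.8 CPM at 20°C. Its counts, and those of *rab-3*, can hold reads of the transgene. Replicate 4 at 20°C stood apart in both strains, with summed vitellogenin (yolk protein) levels of 130477 CPM in the rescued library and 170133 CPM in the wildtype library. The other libraries at 20°C had 43013, 72562 and 56220 CPM in rescued animals and 84692 and 116545 CPM in wildtype. The strand setting of the counting is not given in the sources used here, so genes that overlap others are uncertain, which applies to *C55B7.3*, *T12D8.5*, *apy-1*, *clec-83*, *ets-4*, *mig-13*, *nlp-24*, *hum-6*, *zip-1*, *cyp-37A1*, *lgg-2*, *dhs-28*, *ctl-2*, *knl-3*, *cyc-2.1*, *C02F5.14*, *F23C8.8*, *drp-1*, *fis-2*, *mff-1*, *mff-2*, *xpo-1* and *rab-3*.

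Heat changed fewer genes in rescued animals than in wildtype, and where the 2 responses differed the rescued response was mostly the smaller one. Of the 13482 genes tested, 3019 changed with heat in rescued animals (22.4% for both directions together, 1487 rising and 1532 falling), against 5794 in wildtype, where 2807 rose (20.8%) and 2987 fell (22.2%). In the shallower libraries alone, where wildtype at 37°C is 1 library, heat changed 2541 genes in rescued animals and 3590 in wildtype. The difference between the 2 responses passed an adjusted p of 0.05 (quasi-likelihood test of edgeR, adjusted by the Benjamini-Hochberg method) for 414 genes, or 3.07% of those tested. It was positive for 329 of them (2.44%) and negative for 85 (0.630%), while the median over all genes was −0.05. For 306 of the 414 genes the fitted heat effect had the same sign in both strains and was smaller in rescued animals. It passed for 136 of them in rescued animals. In wildtype it passed for all 306, which the choice of these genes by a passing difference nearly requires. Of the 306, 255 fell with heat in wildtype, with a median log2 change of −0.57 in rescued animals against −2.22 in wildtype, and 51 rose with heat in wildtype, with a median of 0.52 in rescued animals against 1.68 in wildtype. The fitted changes had opposite signs for 71 genes with a negative and 33 genes with a positive change in wildtype, and for 4 genes the change was larger in rescued animals. In *hlh-30(tm1978)* mutants without the transgene the median changes of the 255 and the 51 genes were −1.498 and 1.43.

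The count of 414 depended on single libraries. Without replicate 4 of rescued animals at 20°C it was 1513, and without replicates 1, 2 and 3 of that group it was 177, 235 and 190. Without replicate 4 of wildtype at 20°C it was 93, of which 88 were among the 414, and without replicate 2 of that group it was 745. Leaving out wildtype replicate 1 or 2 at 37°C gave 241 or 215, and leaving out rescued replicate 3 at 37°C gave 216. In each of these fits all 414 genes kept their sign, and 81 of them passed the threshold in all 15. The 414 were picked by passing with these same libraries, so the kept signs are no separate check of them. With the 4 libraries of more than 20000000 counts left out, together with those of the mutants at that depth, which leaves wildtype at 37°C with 1 library assumed to vary like the other groups, 3 genes passed (*lec-8*, *F59B1.2* and *F45D3.4*) and 2266 had an unadjusted p under 0.05. A fit with depth class as a covariate gave 815 genes. A fit without the deeper libraries outside wildtype at 37°C, added after seeing the data, gave 271 genes, of which 244 were among the 414.

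**Figure D1:**
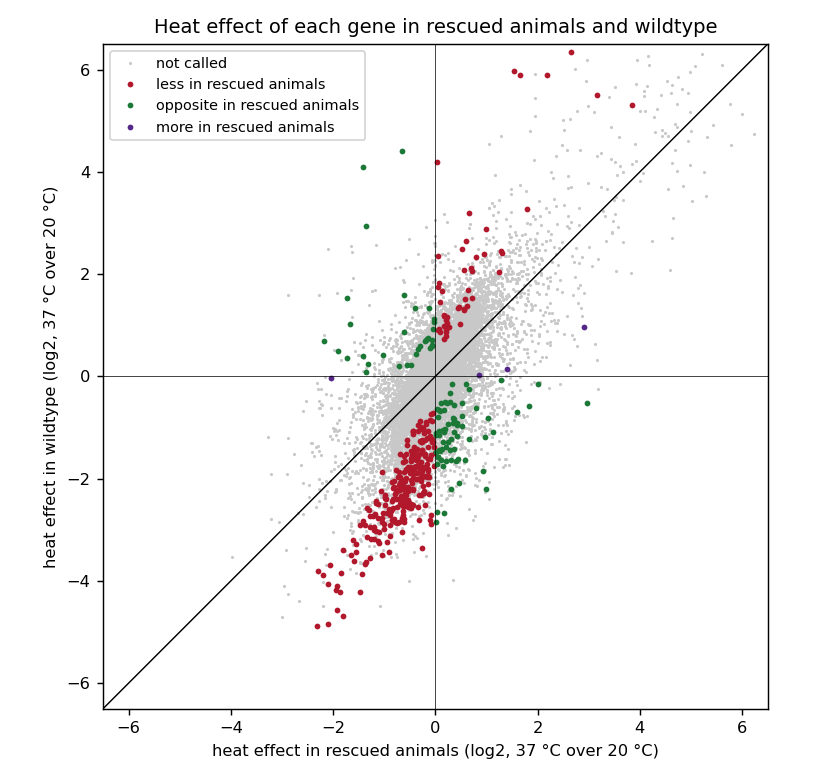
Each point is a gene, placed by its log2 heat effect in rescued animals (x axis) and in wildtype (y axis), and the diagonal marks equal effects. Red points (smaller in rescued animals, 306 genes), green points (opposite sign) and purple points (larger, 4) passed the threshold for the difference, most red points lie in the lower left between the diagonal and the vertical axis, and 108 genes, 2 of them with a passing difference, lie outside the axes.

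The differences sat at 37°C more than at 20°C. Of the 329 genes with a positive difference, 285 were higher and 2 were lower in rescued animals than in wildtype at 37°C (21.1% and 20.4% of all genes tested), with a median log2 ratio of 1.12. At 20°C, 5 of them were higher and 86 lower in rescued animals (9.64% and 13.8% of all genes), with a median of −0.37. Of the 85 genes with a negative difference, 2 were higher and 67 lower in rescued animals at 37°C, with a median of −0.84, and 27 were higher and 10 lower at 20°C, with a median of 0.38. These ratios come from the libraries that also gave the differences.

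The 8 mutant libraries share none of the 15 libraries compared, and they give a grouping of genes by heat whose levels do not enter the difference, although they share its estimate of the spread (37.2% of genes changed in them). Among the 2220 genes that fell with heat in mutants, the difference between rescued animals and wildtype was positive for 267 (12.03%) and negative for 2, with a median of 0.48. Among the 2797 genes that rose with heat in mutants it was positive for 5 and negative for 62 (2.22%), with a median of −0.40. The remaining 8465 genes had 57 positive and 21 negative differences and a median of −0.04. The difference between the heat effects of rescued animals and mutants passed for 6 genes (0.0445%), with 1301 at an unadjusted p under 0.05 and 76 with DESeq2's Wald test. That between mutants and wildtype passed for 0 genes, with 585 at an unadjusted p under 0.05 and 2 with DESeq2. These contrasts share the rescued or the wildtype libraries with the main one.

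Several marker genes of the intestine fell less with heat in rescued animals. All 7 intestinal markers tested had a positive difference, and 4 of them passed (*ges-1*, *elt-2*, *act-5* and *ifb-2*). Their summed level was 12737 to 17562 CPM in rescued animals at 37°C and 27609 to 92203 CPM at 20°C, against 4653 to 8219 CPM in wildtype at 37°C and 49769.8 to 105767 CPM at 20°C. The strains did not overlap at 37°C and did overlap at 20°C. The sum includes the yolk protein genes *vit-2* and *vit-6*, whose differences did not pass. The levels of *ges-1* and *elt-2* are a very small part of it, so it does not weigh the markers evenly. In RNA of whole animals, fewer cells of a tissue and less RNA per cell cannot be told apart. The summed intestinal markers moved in the same direction as the metabolic, lysosomal and defence genes described next, and their part in those results was not tested.

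**Figure D2:**
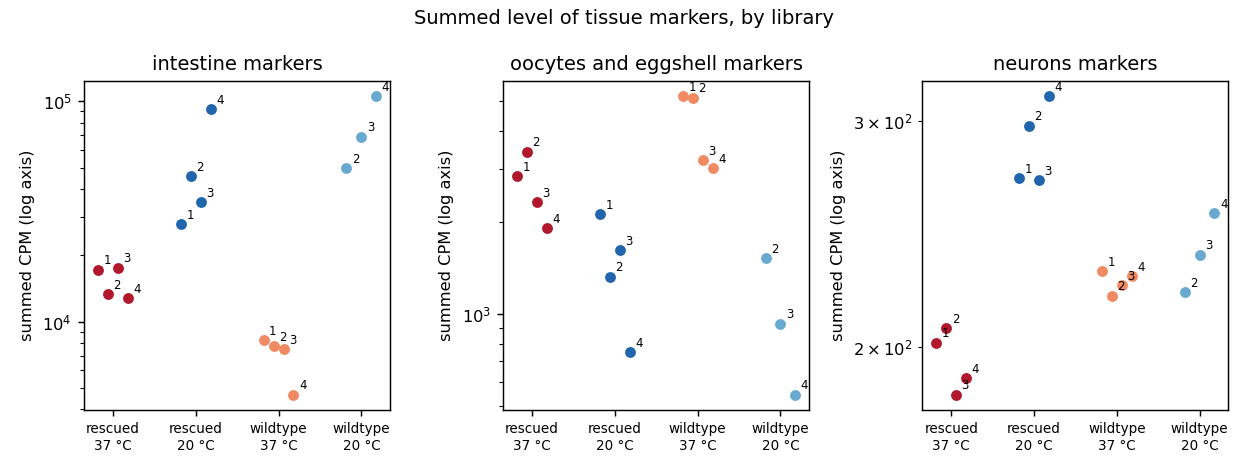
Summed CPM (log axis) of 7 intestine, 6 oocyte and eggshell and 7 neuron markers in each library, with the replicate number beside each point. The intestine markers include *vit-2* and *vit-6*, and the neuron markers include *rab-3*. At 37°C the 4 rescued libraries lie above the 4 wildtype libraries for the intestine and below them for neurons, and replicate 4 at 20°C is the highest for the intestine and the lowest for oocytes in both strains.

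The esterase gene *ges-1* (WBGene00001578, chromosome V, 1427653 to 1432137, minus strand), an intestine-specific enzyme long used as a marker of the gut, had 30.4, 30.2, 24.1 and 28.3 CPM in rescued animals at 37°C and 29.9, 48.8, 34.4 and 81.3 CPM at 20°C. Wildtype had 7.12, 6.53, 11.3 and 8.79 CPM at 37°C, with 53.5, 53.5 and 76.4 CPM at 20°C. Every rescued library at 37°C was above every wildtype library at 37°C, while the strains overlapped at 20°C. Its log2 heat effect was −0.78 in rescued animals against −2.85 in wildtype, a difference of 2.07 (standard error 0.36, edgeR adjusted p = 0.00445). The factor gene *elt-2* (WBGene00001250, chromosome X, 10481240 to 10483446, plus strand) had 12.9, 13.4, 12.5 and 11.3 CPM in rescued animals at 37°C and 7.26, 13.5, 10.3 and 26.9 CPM at 20°C, against 3.56, 3.25, 5.15 and 3.99 CPM in wildtype at 37°C and 15.4, 16.3 and 25.2 CPM at 20°C. Heat lowered *elt-2* in wildtype (−2.25), whereas the value in rescued animals was −0.21 and did not pass, a difference of 2.03 (standard error 0.44, edgeR adjusted p = 0.0154). Without wildtype replicate 4 at 20°C the difference of *elt-2* was 1.77 and did not pass, and that of *ges-1* was 1.88 and passed.

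Of the passing intestinal markers, the microvillar actin *act-5* differed by 1.51 and the intermediate filament gene *ifb-2* by 1.39. Other genes of the gut lumen were chosen because their differences passed, so no count over such genes is given. They were the intermediate filament genes *ifd-2* (2.21) and *ifc-2* (1.53), the filament organizer *ifo-1* (2.13), *ifbp-1* (2.08), the brush border linker *erm-1* (0.79) and the peptide transporter *pept-1* (1.94). The differences of *ifd-2*, *ifo-1*, *ifbp-1* and *erm-1* passed with any of the 15 libraries left out. Those of *act-5*, *ifb-2*, *ifc-2* and *pept-1* did not pass without wildtype replicate 4 at 20°C, when they were 1.47, 1.26, 1.32 and 1.77. With each of the 15 libraries left out in turn, *act-5* passed in 5 fits, *ifb-2* in 14, *ifc-2* in 10 and *pept-1* in 12.

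The yolk protein genes, which the intestine expresses for export to oocytes, all had positive differences, with a median of 1.72 over 6 genes. Only *vit-4* passed (1.88, edgeR adjusted p = 0.0447), and it did not pass without wildtype replicate 4 at 20°C (1.69). It passed in 4 of the 15 fits with a library left out. The differences of *vit-2* and *vit-6* were 1.68 and 1.78 with adjusted p of 0.0966 and 0.0867. Without rescued replicate 4 at 20°C all 6 passed, as they did with DESeq2's Wald test. The gene *dsc-4* (WBGene00001099, chromosome IV, 315056 to 320605, minus strand), which encodes the microsomal triglyceride transfer protein that loads lipoproteins with fat, had 21.7, 14.8, 20.5 and 13.7 CPM in rescued animals at 37°C and 26.6, 45.3, 36.2 and 88.0 CPM at 20°C, against 10.07, 7.07, 5.86 and 6.93 CPM in wildtype at 37°C and 109, 121 and 179.8 CPM at 20°C. The rescued libraries were all above the wildtype libraries at 37°C and all below them at 20°C. Heat lowered *dsc-4* by 1.47 on the log2 scale in rescued animals and by 4.21 in wildtype, a difference of 2.74 (standard error 0.43, edgeR adjusted p = 0.00312).

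**Figure D3:**
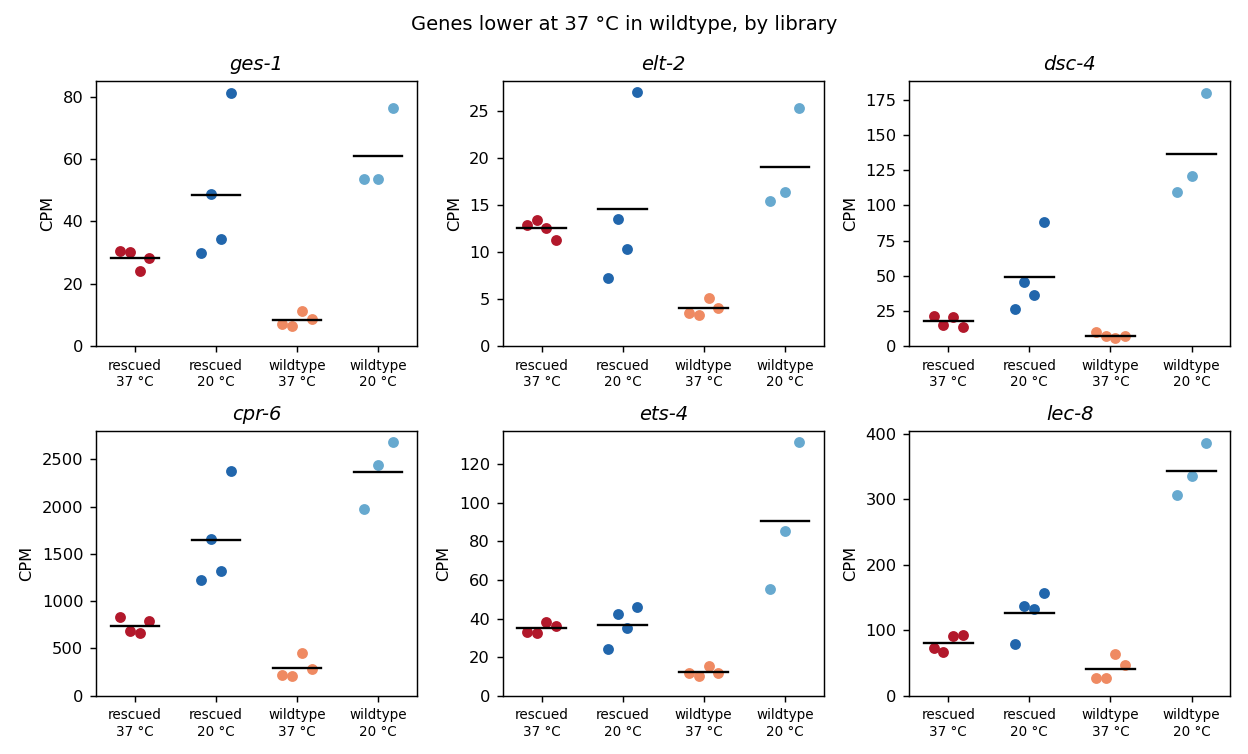
CPM of 6 genes in each library (points) with the group mean (bars), in rescued animals at 37°C and 20°C and in wildtype at 37°C and 20°C. For each gene the 4 rescued libraries at 37°C lie above the 4 wildtype libraries at 37°C, and for *dsc-4*, *ets-4* and *lec-8* the rescued libraries at 20°C lie below the wildtype libraries at 20°C.

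Many genes of fatty acid metabolism differed in their heat effect, most of them with a positive difference. Of 97 tested, 15 had a passing positive and 2 a passing negative difference (17.5%), the median was 0.30 and 73 were positive. The count of 17 was 2 without wildtype replicate 4 at 20°C and 26 without rescued replicate 4 at 20°C. The acyl-CoA synthetase gene *acs-1* (WBGene00018488, chromosome V, 6524989 to 6532089, plus strand) had 208, 199, 178 and 157 CPM in rescued animals at 37°C and 208, 259, 229.7 and 422 CPM at 20°C, against 71.3, 58.95, 129.6 and 81.8 CPM in wildtype at 37°C and 451, 489 and 495 CPM at 20°C. The strains did not overlap at either temperature, rescued animals being higher at 37°C and lower at 20°C. Its heat effect was −0.59 in rescued animals, which did not pass, and −2.49 in wildtype, a difference of 1.89 (standard error 0.34, edgeR adjusted p = 0.00544). The elongase gene *elo-2* (WBGene00001240, chromosome IV, 17466060 to 17467408, minus strand), which extends palmitate, fell to 121, 97.6, 87.4 and 98.2 CPM in rescued animals at 37°C, against 241, 275, 275 and 444 CPM at 20°C. It fell in wildtype to 36.7, 27.2, 63.5 and 51.8 CPM at 37°C, against 350.4, 420.3 and 459 CPM at 20°C. Rescued animals were above wildtype at 37°C and overlapped with it at 20°C. The difference of 1.58 (standard error 0.33, edgeR adjusted p = 0.0146) was 1.49 and did not pass without wildtype replicate 4 at 20°C.

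Further members of the list that fell less were the Δ6 desaturase *fat-3* (1.25) and the peroxisomal enzymes *daf-22* (1.32) and *dhs-28* (1.18), which shorten the side chains of ascaroside pheromones. None of these 3 passed without wildtype replicate 4 at 20°C. With each of the 15 libraries left out in turn, *fat-3* passed in 12 fits, *daf-22* in 6 and *dhs-28* in 4. The gene *fitm-2*, which encodes a fat storage-inducing membrane protein, had 59.4, 52.6, 44.0 and 54.7 CPM in rescued animals at 37°C and 59.9, 64.1, 61.8 and 66.6 CPM at 20°C, against 42.6, 34.8, 39.1 and 36.7 CPM in wildtype at 37°C and 85.2, 88.8 and 98.1 CPM at 20°C. Its libraries were tightly grouped, and the rescued ones lay above wildtype at 37°C and below it at 20°C. The difference was 0.98 (standard error 0.15, edgeR adjusted p = 0.00268). The fatty acid binding protein gene *lbp-2* (WBGene00002254, chromosome X, 3260610 to 3261470, plus strand) was 1 of the 2 members that went the other way, with 1328, 1895, 1278 and 1627 CPM in rescued animals at 37°C and 999, 1008, 948 and 1036 CPM at 20°C. Wildtype had 2488, 2459, 2866 and 2579 CPM at 37°C, with 1041, 1060.0 and 897 CPM at 20°C. The strains were alike in range at 20°C, and every rescued library was below every wildtype library at 37°C. Heat raised *lbp-2* by 0.62 in rescued animals and by 1.38 in wildtype, a difference of −0.76 (standard error 0.17, edgeR adjusted p = 0.0181), which was −0.69 and did not pass without wildtype replicate 4 at 20°C. The other was the enoyl-CoA hydratase family gene *ech-5* (−0.55). Its difference passed in 6 of the 15 fits with a library left out, and not without wildtype replicate 4 at 20°C (−0.48).

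Some lysosomal protease genes fell less with heat as well. Of 52 genes of the lysosomal proton pump, proteases and lipases, 5 passed, all with a positive difference (9.62%), and the median was 0.54. All 5 encode proteases: the cathepsin B-like *cpr-6*, *cpr-8*, *cpr-3* and *cpr-1* and the aspartyl protease *asp-5*. Without wildtype replicate 4 at 20°C the count was 1, and without rescued replicate 4 at 20°C it was 21. The gene that remained, *cpr-6* (WBGene00000786, chromosome X, 6607203 to 6609045, plus strand), had 834, 680.3, 662 and 787 CPM in rescued animals at 37°C and 1225, 1662, 1319.8 and 2376 CPM at 20°C, against 219.5, 209.6, 456 and 283 CPM in wildtype at 37°C and 1977, 2444 and 2679 CPM at 20°C. Rescued libraries were above wildtype at 37°C and the strains overlapped at 20°C. Its heat effect was −1.15 in rescued animals against −3.02 in wildtype, a difference of 1.87 (standard error 0.39, edgeR adjusted p = 0.0132). Of 33 autophagy genes, 2 passed (6.06%, against 3.07% of all genes tested), while 12 had a negative difference and the median was 0.16. The lipid kinase gene *vps-34* (0.90) rose with heat in rescued animals (0.66) and had −0.24 in wildtype. The LC3 homologue *lgg-2* (0.75) had −0.19 in rescued animals and fell in wildtype (−0.94). With each of the 15 libraries left out in turn, *vps-34* passed in 10 fits and *lgg-2* in 4. Neither passed without wildtype replicate 4 at 20°C.

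Among sugar-binding and defence proteins, 10 of 95 C-type lectin genes passed, all with a positive difference (10.5%). The median of the list was 0.06 and 49 members were positive. The count was 4 without wildtype replicate 4 at 20°C and 21 without rescued replicate 4 at 20°C. The lectin gene *clec-83* (WBGene00021879, chromosome IV, 2839375 to 2841434, minus strand) had 33.2, 26.3, 23.1 and 25.5 CPM in rescued animals at 37°C and 44.8, 58.1, 47.7 and 83.8 CPM at 20°C. Wildtype had 5.59, 5.26, 6.48 and 4.88 CPM at 37°C, with 49.2, 45.7 and 60.6 CPM at 20°C. The ranges overlapped at 20°C and were far apart at 37°C, and the difference of 2.105 (standard error 0.25) had the smallest edgeR adjusted p of the genes with a positive difference (0.000226). The related *clec-265* and *clec-204* differed by 2.44 and 2.01, and all 3 passed with any library left out. The galectin gene *lec-8* (WBGene00002271, chromosome X, 9850209 to 9851375, plus strand), chosen after its values were seen, had 72.6, 67.4, 90.7 and 92.4 CPM in rescued animals at 37°C and 79.7, 138, 132 and 157 CPM at 20°C, against 27.5, 27.3, 63.2 and 47.3 CPM in wildtype at 37°C and 307, 336 and 387 CPM at 20°C. It was higher in rescued animals at 37°C and lower at 20°C without overlap, a difference of 2.40 (standard error 0.39, edgeR adjusted p = 0.00316). Of 67 lysozyme, saposin-like and antimicrobial genes, the thaumatin-like *thn-2* (1.97), *dod-19* (1.38) and the invertebrate-type lysozyme *ilys-5* (1.37) passed (4.48%), while 38 of the 67 had a negative difference and the median was −0.17. None of the 3 passed without wildtype replicate 4 at 20°C. With each of the 15 libraries left out in turn, *thn-2* passed in 7 fits, *dod-19* in 7 and *ilys-5* in 4.

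Several transcription factor genes fell less in rescued animals. Of 54 regulators of stress resistance and longevity, 8 passed, all with a positive difference (14.8%), and the list's median was 0.67. They were *elt-2*, *daf-16*, *pqm-1*, *xbp-1* and the bZIP genes *zip-1*, *zip-2*, *zip-3* and *zip-9*. The count was 2 without wildtype replicate 4 at 20°C (*zip-1* and *zip-3*) and 20 without rescued replicate 4 at 20°C. The bZIP factor gene *zip-3* (WBGene00012330, chromosome II, 13951906 to 13957543, minus strand), which restrains the mitochondrial stress factor ATFS-1, had 48.1, 42.6, 53.3 and 53.7 CPM in rescued animals at 37°C and 55.7, 91.1, 79.8 and 90.9 CPM at 20°C, against 13.6, 12.9, 24.7 and 15.7 CPM in wildtype at 37°C and 71.8, 115.7 and 96.6 CPM at 20°C. Rescued animals were higher at 37°C without overlap, and the difference was 1.81 (standard error 0.36, edgeR adjusted p = 0.0102). The FOXO gene *daf-16*, the output of insulin signalling, had 64.4, 50.1, 58.9 and 49.3 CPM in rescued animals at 37°C and 73.5, 67.9, 65.5 and 105 CPM at 20°C. Wildtype had 35.6, 29.6, 22.9 and 25.3 CPM at 37°C, with 77.9, 71.3 and 82.9 CPM at 20°C. Rescued libraries were above wildtype at 37°C and the strains overlapped at 20°C. Its heat effect was −0.48 in rescued animals against −1.45 in wildtype, a difference of 0.97 (standard error 0.22, edgeR adjusted p = 0.0216). The difference of *daf-16* did not pass without wildtype replicate 4 at 20°C (0.92) or without rescued replicate 1 or 3 at 20°C. The kinase gene *sgk-1*, which acts beside *daf-16* in the same pathway, differed by 1.496, which passed in 3 of the 15 fits with a library left out, and was 1.26 and did not pass without wildtype replicate 4 at 20°C.

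The ETS factor gene *ets-4* (WBGene00017687, chromosome X, 6518883 to 6522656, plus strand) had 33.1, 32.5, 38.03 and 36.03 CPM in rescued animals at 37°C and 24.4, 42.3, 35.1 and 45.8 CPM at 20°C, against 11.6, 10.3, 15.6 and 11.7 CPM in wildtype at 37°C and 55.5, 85.5 and 131 CPM at 20°C. The rescued libraries overlapped between the temperatures and lay above wildtype at 37°C and below it at 20°C. The heat effect of −0.08 in rescued animals did not pass, that of −2.88 in wildtype did, and the difference was 2.80 (standard error 0.41, edgeR adjusted p = 0.00168). Of 176 nuclear hormone receptor genes, 10 passed, all with a positive difference (5.68%), with a list median of 0.40. They include *nhr-49* (0.76), which turns on fat-burning and desaturase genes, *nhr-79* (1.75) and *nhr-168* (2.80). The count was 2 without wildtype replicate 4 at 20°C and 27 without rescued replicate 4 at 20°C.

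Of 187 genes of cytochromes P450, UDP-glucuronosyltransferases, esterases and transporters that process foreign compounds, 12 had a passing positive and 1 a passing negative difference (6.95%), with a median of 0.44. Besides *ges-1* they include *cyp-37A1* (2.03) and the ABC transporter gene *mrp-3* (1.89). The count of 13 was 1 without wildtype replicate 4 at 20°C (*ges-1*) and 28 without rescued replicate 4 at 20°C. In 4 other lists the calls were 1 or 2 positive differences each. The J-domain genes *dnj-7* (1.28) and *dnj-20* (0.82) passed of 39 genes of HSP90, its co-chaperones and J-domain proteins (5.13%), of which 25 had a negative difference (median −0.19). The catalase *ctl-2* (1.28) passed of 58 glutathione and redox genes (1.72%), 32 of them negative (median −0.06). The trehalases *tre-2* (1.06) and *tre-4* (1.65) passed of 35 genes of glycolysis, trehalose and glycerol (5.71%), 17 of them negative (median 0.02). The tRNA synthetases *aars-1* (0.68) and *lars-2* (0.72) passed of 31 (6.45%), 20 of them negative (median −0.14). Of these 7, *tre-2* and *lars-2* passed with any library left out.

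The largest positive difference among genes with a mean of at least 50 counts was that of *mig-13* (WBGene00003245, chromosome X, 4796095 to 4800128, minus strand), a membrane protein that guides migrating neuroblasts. It had 4.36, 5.16, 9.23 and 6.34 CPM in rescued animals at 37°C and 2.16, 2.62, 2.13 and 5.84 CPM at 20°C, against 1.93, 1.59, 1.77 and 1.09 CPM in wildtype at 37°C and 3.24, 4.81 and 13.8 CPM at 20°C. The rescued libraries were above wildtype at 37°C, and the strains overlapped at 20°C. The wildtype library at 13.8 CPM is replicate 4, and without it the difference of 3.18 (standard error 0.66, edgeR adjusted p = 0.0138) was 2.33 and did not pass. The gene *F28B4.3* (WBGene00017892, chromosome X, 3227489 to 3235408, minus strand) had 65.6, 53.0, 102 and 76.9 CPM in rescued animals at 37°C and 146, 287, 224 and 390.3 CPM at 20°C, against 10.3, 10.5, 23.1 and 11.8 CPM in wildtype at 37°C and 237, 324 and 528 CPM at 20°C. Rescued animals lay above wildtype at 37°C without overlap, and the difference of 2.88 (standard error 0.53, edgeR adjusted p = 0.00747) passed with any library left out. Others among the largest were the cathepsin A-like *ctsa-2* (2.74), the myosin *hum-6* (2.69), *dec-7* (2.67), *Y16B4A.2* (2.65), *C12D12.1* (2.57) and *C31C9.6* (2.51), of which *ctsa-2*, *dec-7* and *C12D12.1* did not pass without wildtype replicate 4 at 20°C (2.29, 2.21 and 2.29). The gene *gad-3* (WBGene00015057, chromosome V, 9168393 to 9173024, minus strand) had 18.96, 19.996, 30.2 and 21.2 CPM in rescued animals at 37°C and 21.4, 30.2, 23.5 and 31.9 CPM at 20°C, against 10.7, 10.7, 13.6 and 14.9 CPM in wildtype at 37°C and 53.2, 54.6 and 75.8 CPM at 20°C. Rescued animals were above wildtype at 37°C and below it at 20°C, a difference of 2.05 (standard error 0.28, edgeR adjusted p = 0.00127). Small p-values were also found for *T12D8.5* (1.97) and *F59B1.2* (1.69).

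Fewer genes that heat induced in wildtype rose less in rescued animals. The calpain family gene *clp-8* had 1.02, 2.86, 2.56 and 2.14 CPM in rescued animals at 37°C and 0.209, 1.07, 0.801 and 0.628 CPM at 20°C, against 8.34, 13.7, 6.39 and 7.499 CPM in wildtype at 37°C and 0, 0.437 and 0 CPM at 20°C. It rose in both strains, the rescued libraries staying below the wildtype libraries at 37°C. The fitted difference of −4.25 (standard error 0.91, edgeR adjusted p = 0.0151) rests on 0 to 6 counts per library in wildtype at 20°C, and it was −3.68 and did not pass without replicate 4 of that group. The NAD synthesis gene *nmat-1* (WBGene00012295, chromosome X, 12014250 to 12016190, minus strand) had 5.04, 7.93, 6.67 and 5.27 CPM in rescued animals at 37°C and 4.12, 3.45, 4.67 and 4.65 CPM at 20°C, against 16.1, 31.4, 15.3 and 13.9 CPM in wildtype at 37°C and 3.45, 5.03 and 5.21 CPM at 20°C. The strains overlapped at 20°C and not at 37°C, a difference of −1.51 (standard error 0.35, edgeR adjusted p = 0.0216), which was −1.62 and did not pass without wildtype replicate 4 at 20°C. The gene *Y50E8A.1* had a heat effect of 0.06 in rescued animals and rose by 2.36 in wildtype, and its difference passed with any library left out. Further genes that rose less were the collagen *col-97* (−2.33), *R09E12.9* (−1.88), *C11G10.1* (−1.54), the patched-related *ptr-18* (−1.45), the F-box gene *fbxa-69* (−1.04) and the chemoreceptor *srw-40*, none of which passed without wildtype replicate 4 at 20°C. With each of the 15 libraries left out in turn, they passed in 5, 6, 7, 4, 14 and 12 fits, in this order.

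The smallest p-value of all belonged to *K02H11.4* (WBGene00019348, chromosome V, 1528824 to 1531259, minus strand), which had 0 counts in all 3 wildtype libraries at 20°C. It had 0.598, 1.35, 0.930 and 0.763 CPM in rescued animals at 37°C and 0.489, 0.832, 0.4003 and 0.942 CPM at 20°C, and 1.42, 2.36, 2.44 and 2.78 CPM in wildtype at 37°C. Heat raised it at least 10.5-fold in wildtype, against a floor of 3 counts per library, and the rescued libraries overlapped between the temperatures. The test of the difference gave an adjusted p of 0.000226 (edgeR), and the fitted size depends on the prior count and is no bound.

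The lists of small heat shock, HSP70 and HSP110, chaperonin, proteasome and cytosolic ribosomal protein genes held no passing difference. Without rescued replicate 4 at 20°C, 2, 0, 1, 3 and 4 of their genes passed. None of 15 small heat shock protein genes and none of 11 HSP70 and HSP110 genes passed, with 12 and 3 of them negative. At an unadjusted p under 0.05 the counts were 5 and 2, and with DESeq2 1 gene passed in each. The nearest was *hsp-12.6*, with −0.86 in rescued animals and 0.93 in wildtype (difference −1.80, edgeR adjusted p = 0.0505). Heat raised *hsp-70* by 8.17 in rescued animals and by 11.08 in wildtype (difference −2.91, edgeR adjusted p = 0.0746). The wildtype libraries at 20°C had 6 to 18 counts of *hsp-70*. All 14 chaperonin and prefoldin genes (median −0.47), 32 of 33 proteasome subunit genes (−0.35) and 70 of 80 cytosolic ribosomal protein genes (−0.31) had negative differences. Each value here is to be read against the median of −0.05 over all genes. At an unadjusted p under 0.05 these 3 lists had 8, 7 and 11 genes, and with DESeq2 0, 0 and 4 passed. Heat raised 3 of the 14, 5 of the 33 and 55 of the 80 in rescued animals, against 10, 18 and 66 in wildtype. Over all 13482 genes tested, heat raised 1487 in rescued animals and 2807 (20.8%) in wildtype, so fewer calls in rescued animals are not particular to these lists. For example, *rla-0*, a ribosomal stalk protein, rose by 1.12 in rescued animals and by 1.92 in wildtype (difference −0.80, edgeR adjusted p = 0.0585).

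Germline and cell division genes had mostly negative differences. Of 68 oocyte, eggshell and germline genes, 61 had a negative difference, with a median of −0.49 and none past the threshold (29 at an unadjusted p under 0.05, 0 with DESeq2). Without rescued replicate 4 at 20°C, 13 passed. The 6 oocyte and eggshell markers summed to 1917 to 3414 CPM in rescued animals at 37°C and 751 to 2132 CPM at 20°C, against 3016 to 5194 CPM in wildtype at 37°C and 544 to 1528 CPM at 20°C. The strains overlapped at both temperatures, and the part of these cells in the results was not tested. Of 58 DNA replication and cell cycle genes, 2 passed (3.45%), a share near the 3.07% of all genes tested. They were the kinetochore gene *knl-3* (−0.85) and the ribonucleotide reductase gene *rnr-2* (−0.70), both negative. The list median was −0.43, and 50 members were negative. With each of the 15 libraries left out in turn, *knl-3* passed in 5 fits and *rnr-2* in 3. Neither passed without wildtype replicate 4 at 20°C. Other single calls on the negative side were the sperm kinase *spe-6* (−1.09), the cytochrome c gene *cyc-2.1* (−0.67) and *mics-1* (−0.58), which likewise did not pass without that library. They passed in 5, 5 and 7 of the 15 fits with a library left out. The 12 protein-coding genes of the mitochondrial genome, taken by chromosome because the list's symbols differ from those of the annotation, ranged from −0.49 to 0.05, and none passed (1 at an unadjusted p under 0.05, 0 with DESeq2).

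Neuropeptide genes had the lowest median of the lists, −0.66 over 75 genes, of which 66 were negative and 1 passed. Heat lowered 39 of them in rescued animals, with a median of −0.96, against 19 in wildtype, with a median of −0.25. Over all 13482 genes tested, heat lowered 1532 in rescued animals and 2987 (22.2%) in wildtype, and the 19 of 75 in wildtype are near that share. The gene that passed, *nlp-24* (WBGene00003762, chromosome V, 11616283 to 11616829, plus strand), was not lowered by heat, with 88.8, 113, 55.9 and 73.0 CPM in rescued animals at 37°C and 83.1, 73.2, 64.6 and 88.99 CPM at 20°C. Wildtype had 74.9, 45.5, 72.3 and 41.2 CPM at 37°C, with 26.3, 19.6 and 18.1 CPM at 20°C. The rescued libraries at 20°C were above the wildtype libraries at 20°C, and the strains overlapped at 37°C. The difference of −1.36 (standard error 0.33, edgeR adjusted p = 0.0274) was −1.25 and did not pass without wildtype replicate 4 at 20°C. It passed in 9 of the 15 fits with a library left out. Of 49 genes of the presynaptic machinery 0 passed (9 at an unadjusted p under 0.05, 1 with DESeq2), with a median of 0.01. The SNAP-25 gene *ric-4* was the nearest (−0.97, edgeR adjusted p = 0.0598). The 7 neuron markers summed to 184 to 207 CPM in rescued animals at 37°C and 269.9 to 314 CPM at 20°C, against 219 to 229 CPM in wildtype at 37°C and 221 to 254 CPM at 20°C, and 0 of the 7 passed singly. The 7 include *rab-3*, and without it the sums were 159 to 192 CPM in rescued animals at 37°C and 221 to 242 CPM at 20°C, against 218 to 228 CPM in wildtype at 37°C and 216 to 248 CPM at 20°C. Their part in the neuropeptide values was not tested.

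**Figure D4:**
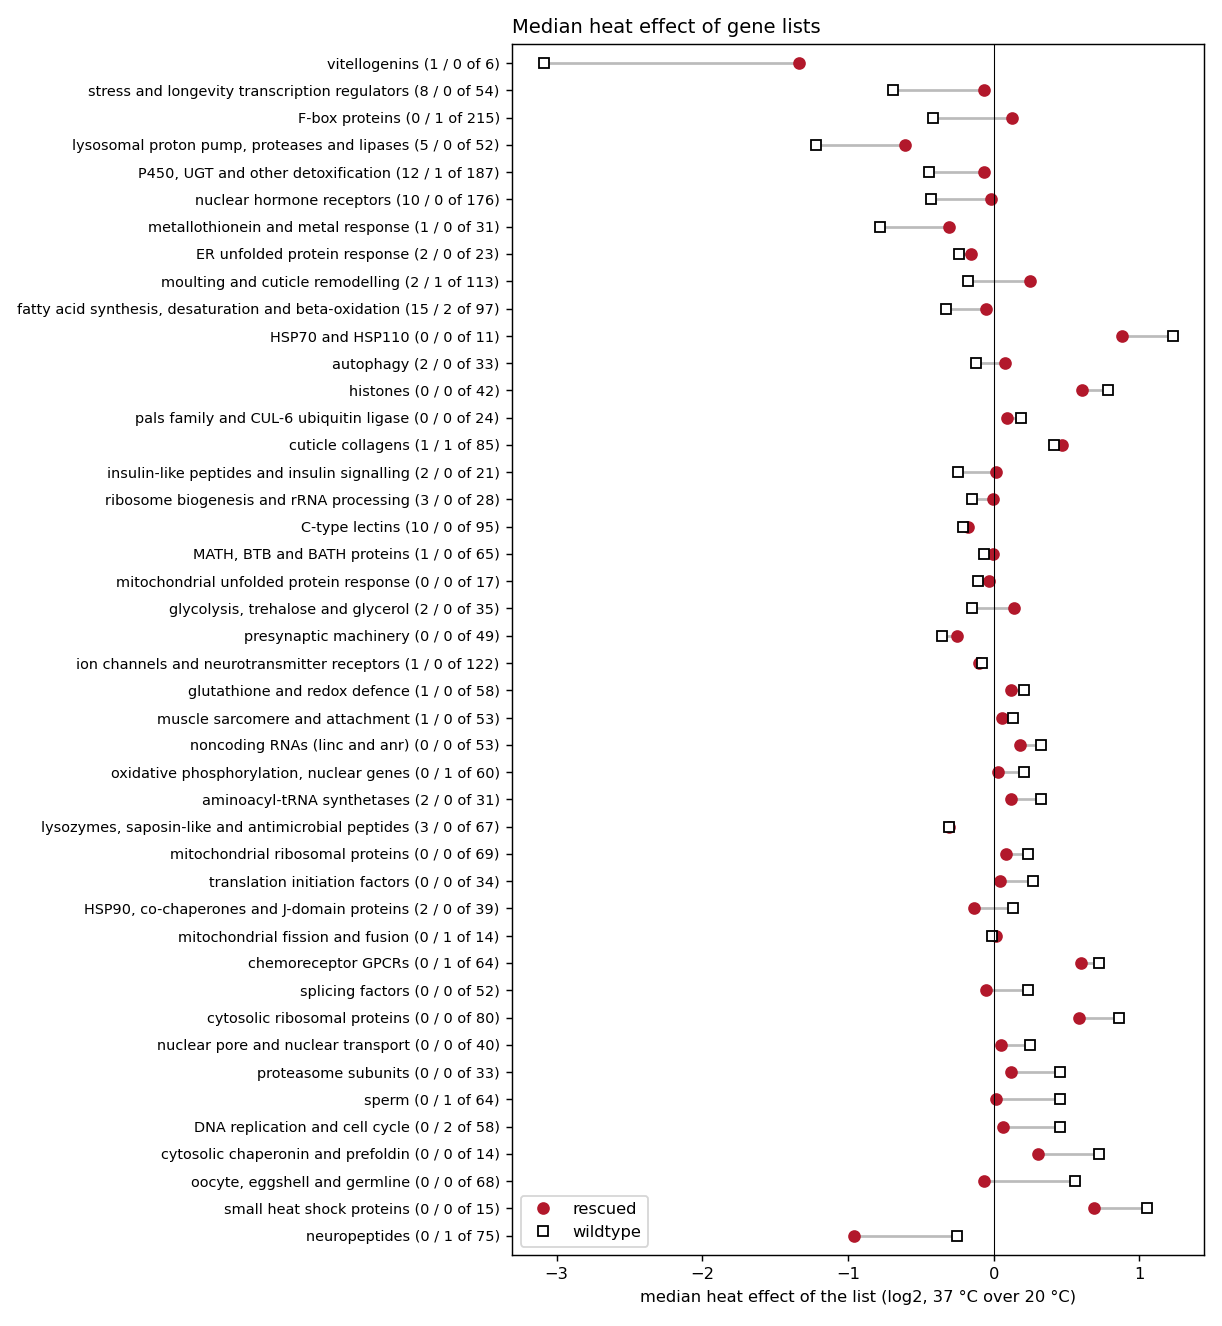
Median log2 heat effect of each gene list in rescued animals (filled circles) and wildtype (open squares), ordered by the median difference, with the number of genes with a passing positive and negative difference of those tested in brackets. The circle lies nearer to 0 than the square for most lists, with the largest gap for the vitellogenins, and it lies farther from 0 for the neuropeptides.

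Of the 71 and 33 genes with opposite signs, 8 had a heat effect that passed in both strains. Heat raised 6 of these 8 in rescued animals and lowered them in wildtype: *F57C12.2*, *C55B7.3*, *ZK673.1*, the SMAD gene *sma-4*, the apyrase gene *apy-1* and *Y52B11A.10*. The gene *F57C12.2* (WBGene00019014, chromosome X, 549363 to 551392, minus strand) had 2.99, 3.25, 2.83 and 3.97 CPM in rescued animals at 37°C and 1.47, 1.84, 1.47 and 1.82 CPM at 20°C, against 1.63, 1.93, 1.51 and 1.69 CPM in wildtype at 37°C and 4.01, 2.99 and 4.56 CPM at 20°C. The temperatures did not overlap within either strain. It rose by 0.97 in rescued animals and fell by 1.18 in wildtype, a difference of 2.16 (standard error 0.34, edgeR adjusted p = 0.00316). The gene *C55B7.3* had 36.4, 33.0, 46.6 and 36.2 CPM in rescued animals at 37°C and 8.45, 14.3, 11.8 and 15.4 CPM at 20°C, against 7.42, 4.76, 10.07 and 4.68 CPM in wildtype at 37°C and 9.44, 9.61 and 13.6 CPM at 20°C. The rescued libraries at 37°C were above all the others. It differed by 2.31 (standard error 0.37, edgeR adjusted p = 0.00316), and it overlaps *acdh-1*, an acyl-CoA dehydrogenase gene on the same strand with a mean of 2487 CPM over the 23 libraries, against 14.6 CPM for *C55B7.3*. The changes in rescued animals and wildtype were 1.02 and −0.82 for *ZK673.1*, 0.80 and −0.63 for *sma-4*, 0.52 and −0.51 for *apy-1*, and 0.29 and −0.32 for *Y52B11A.10*. Heat lowered the other 2 in rescued animals and raised them in wildtype, with changes of −1.73 and 1.54 for *dct-7* and −0.38 and 0.43 for *F31E3.6*. In rescued animals at 37°C *dct-7* had at most 2 counts per library, so its fitted change there is a description only. Of the 8 differences, those of *sma-4*, *Y52B11A.10* and *F31E3.6* did not pass without wildtype replicate 4 at 20°C (1.198, 0.59 and −0.74), that of *Y52B11A.10* passed in 5 of the 15 fits with a library left out, that of *sma-4* did not pass without rescued replicate 3 at 37°C, and that of *dct-7* did not pass without rescued replicate 1 at 20°C or replicate 3 at 37°C. The last 6 of these 8 (all but *F57C12.2* and *C55B7.3*) were chosen after their values were seen, because both heat effects passed.

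The other genes with opposite signs had a heat effect past the threshold in 1 strain alone. The acyl-CoA synthetase gene *acs-17* (WBGene00016716, chromosome X, 5937506 to 5944510, minus strand) had 16.8, 17.8, 15.7 and 12.7 CPM in rescued animals at 37°C and 12.99, 11.41, 10.21 and 19.8 CPM at 20°C, against 18.1, 16.9, 19.5 and 22.9 CPM in wildtype at 37°C and 46.6, 48.6 and 88.2 CPM at 20°C. The strains overlapped at 37°C, and at 20°C every rescued library was below every wildtype library. The heat effect was 0.21 in rescued animals and −1.66 in wildtype, a difference of 1.87 (standard error 0.34, edgeR adjusted p = 0.00639). The gene *F45D3.4* (WBGene00009724, chromosome V, 12552211 to 12553301, minus strand) had 19.2, 24.8, 19.3 and 19.7 CPM in rescued animals at 37°C and 33.0, 31.9, 29.4 and 32.9 CPM at 20°C, against 329, 260.0, 135 and 201 CPM in wildtype at 37°C and 71.1, 57.9 and 102 CPM at 20°C. It was lower in rescued animals at both temperatures without overlap. Heat raised it in wildtype (1.58), its value in rescued animals was −0.62 (adjusted p = 0.0761), and the difference of −2.20 (standard error 0.36, edgeR adjusted p = 0.00336) passed with any library left out and in the shallower libraries alone. The gene *T14A8.2* fell in rescued animals (−2.18) and had 0.70 in wildtype, and *C02F5.14* had −1.67 in rescued animals and 1.03 in wildtype. The difference of *C02F5.14* (−2.70) was −2.30 and did not pass without wildtype replicate 4 at 20°C. Wildtype at 20°C had 4 to 20 counts of *C02F5.14* per library.

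**Figure D5:**
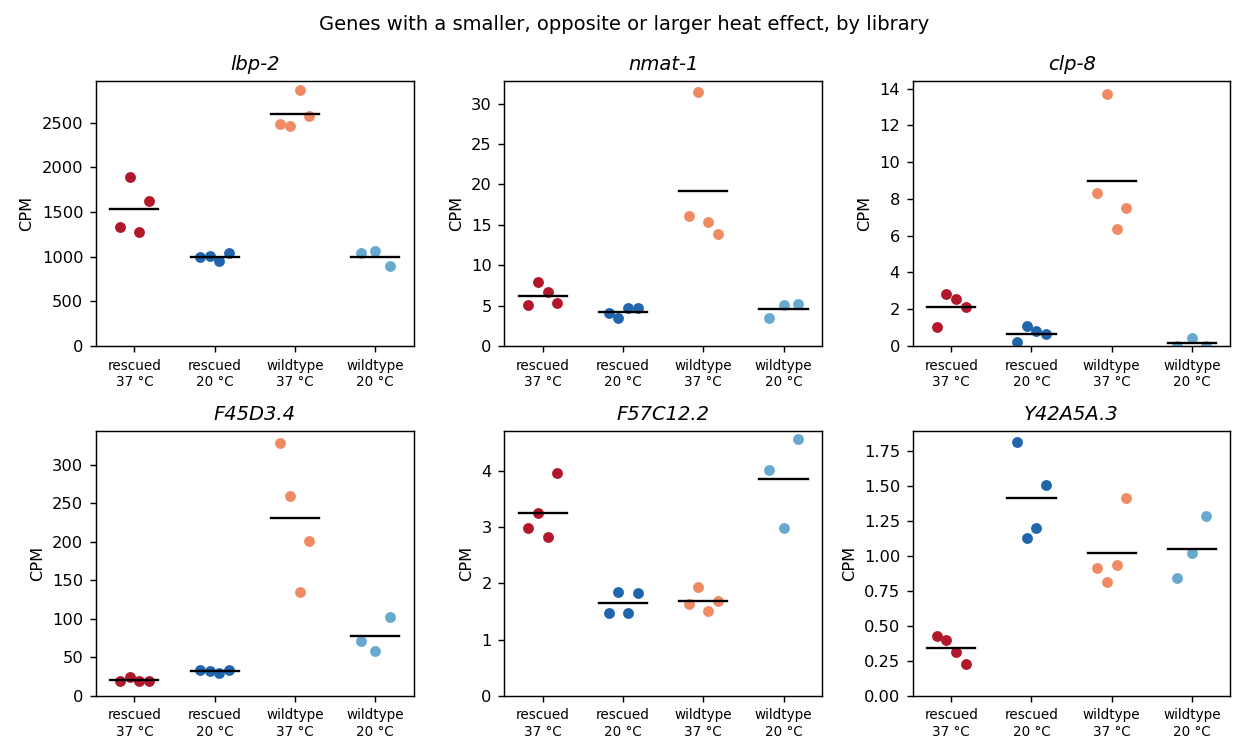
CPM of 6 genes in each library (points) with the group mean (bars), in rescued animals at 37°C and 20°C and in wildtype at 37°C and 20°C. The genes *lbp-2*, *nmat-1* and *clp-8* rose less with heat in rescued animals, *F45D3.4* and *F57C12.2* had opposite signs, and *Y42A5A.3* fell more with heat in rescued animals, where its 4 libraries at 37°C are the lowest of all 15.

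Heat had a larger effect in rescued animals for 4 genes. The gene *Y42A5A.3* had 0.427, 0.397, 0.310 and 0.229 CPM in rescued animals at 37°C and 1.82, 1.13, 1.201 and 1.51 CPM at 20°C, against 0.915, 0.812, 0.932 and 1.41 CPM in wildtype at 37°C and 0.845, 1.02 and 1.28 CPM at 20°C. It fell by 2.04 in rescued animals, from at most 26 counts per library, and had −0.04 in wildtype, a difference of −2.01 (standard error 0.43, edgeR adjusted p = 0.0154). The GATA factor gene *end-3* (WBGene00001311, chromosome V, 14014701 to 14015850, plus strand), which specifies endoderm in the embryo, had 3.93, 5.08, 8.88 and 6.41 CPM in rescued animals at 37°C and 0.908, 0.713, 0.534 and 1.07 CPM at 20°C, against 1.93, 2.71, 4.17 and 3.91 CPM in wildtype at 37°C and 1.197, 1.89 and 1.85 CPM at 20°C. It rose in both strains, by 2.91 in rescued animals and 0.96 in wildtype, and the rescued libraries were below the wildtype libraries at 20°C. Its difference of 1.95 (standard error 0.48, edgeR adjusted p = 0.028) was 1.86 and did not pass without wildtype replicate 4 at 20°C. It passed in 7 of the 15 fits with a library left out. The other 2 were *F23C8.8* (1.25) and *ncl-1* (0.83), which limits the size of the nucleolus. The difference of *ncl-1* passed in 3 of the 15 fits with a library left out, and not without wildtype replicate 4 at 20°C. That of *F23C8.8* passed in 13 of the 15, and not without wildtype replicate 3 or rescued replicate 1 at 20°C.

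The study followed mitochondrial fragmentation and neurotransmission in these strains. A choice of the genes it names was looked up, with the fusion gene *fzo-1* added, and of these *daf-16* alone passed the test of the difference. The fission gene *fis-1* was not among the genes tested. The differences were −0.05 for *W06A11.1*, 0.90 for *Y7A5A.6*, 0.07 for the fission gene *drp-1* and −0.18 for the outer membrane fusion gene *fzo-1*, with edgeR adjusted p of 0.979, 0.26, 0.89 and 0.556. The inner membrane fusion gene *eat-3* fell in both strains, by 0.64 in rescued animals and 1.17 in wildtype, a difference of 0.52 (standard error 0.16, edgeR adjusted p = 0.0714). The values were −0.11 for *mff-1*, −0.20 for *mff-2*, −0.30 for *fis-2*, 0.12 for *unc-13*, −0.98 for *unc-31*, 0.25 for *daf-2*, −0.26 for *xpo-1* and 0.28 for *hlh-30*, with standard errors between 0.178 and 0.432. A p that misses the threshold does not show that the strains responded alike.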

How the data were processed

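Gene counts of RNA from whole animals, 1 column per library, were deposited by the authors as raw counts, made per the labels' processing notes with Trimmomatic, STAR, featureCounts and Subread on WBcel235. The counts were used as deposited. Gene symbols, positions and biotypes came from release 115 of the annotation. Wildtype replicate 1 at 20°C was not used, its file being equal to that of wildtype replicate 4 at 37°C, which leaves 23 of 24 libraries, 15 of them compared here.

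Genes with a mean of at least 10 counts (13482) were fitted with edgeR 4.0.16 (quasi-likelihood test, TMM scaling, R 4.3.3) in 1 model of 6 groups, so that the mutant libraries share in the estimate of the spread. The contrast was (37°C minus 20°C in rescued animals) minus (37°C minus 20°C in wildtype), adjusted by the Benjamini-Hochberg method, and an adjusted p under 0.05 counts as passing. CPM are counts scaled by TMM to a common library size, and differences are log2 values of the fit. The steps were checked on simulated counts.

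Named genes were drawn from the 10 largest differences of each sign with a mean of at least 50 counts, the 10 smallest p-values and up to 3 passing members of each list (or the nearest one). Not every large difference is described. Passing negative differences left out include *dct-8* (−5.51), *Y59H11AR.4* (−1.76) and *F31D5.2* (−1.53). In rescued animals at 37°C *dct-8* had at most 1 count per library. Others were drawn from the 5 smallest p-values of each class of response and from a choice of genes the study names, with *fzo-1* added. Further genes were chosen after their values were seen: *asp-5*, *cpr-1*, *ifbp-1*, *ifc-2*, *ifd-2*, *ifo-1*, *erm-1*, *pept-1*, *lec-8*, *lbp-2*, *fat-3*, *daf-22*, *dhs-28*, *ech-5*, *pqm-1*, *zip-2*, *zip-9*, *apy-1*, *sma-4*, *ZK673.1*, *F31E3.6*, *Y52B11A.10*, *dct-7* and intestinal markers. Members and lists were chosen with earlier results of these data known. Alternatives were DESeq2 1.42.0, other scalings and filters, a stricter threshold, a replicate block, depth, only the 15 libraries, each library left out and, added after seeing the data, a fit without the deeper libraries outside wildtype at 37°C. Precision is limited by 3 or 4 libraries per group.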

Additional observations from a re-analysis of the deposited data

Results flagged for a closer look

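The heat effect differed between rescued animals and wildtype, by the test of the difference itself, for 414 genes. Among the genes of the intestine, fat metabolism and lysosome described with all their libraries, the log2 difference was 2.07 for *ges-1*, 2.03 for *elt-2*, 2.74 for *dsc-4*, 0.98 for *fitm-2*, 1.89 for *acs-1*, 1.87 for *acs-17*, 1.58 for *elo-2*, −0.76 for *lbp-2* and 1.87 for *cpr-6*. Among lectins and transcription factors it was 2.105 for *clec-83*, 2.40 for *lec-8*, 2.80 for *ets-4*, 1.81 for *zip-3*, 0.97 for *daf-16* and 1.95 for *end-3*. For the others it was 3.18 for *mig-13*, 2.05 for *gad-3*, 2.88 for *F28B4.3*, 2.16 for *F57C12.2*, 2.31 for *C55B7.3*, −2.20 for *F45D3.4*, −4.25 for *clp-8*, −1.51 for *nmat-1*, −1.36 for *nlp-24* and −2.01 for *Y42A5A.3*. The fitted value of *K02H11.4* was −7.79, no measure of size because wildtype had 0 counts at 20°C.

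Single libraries stood far from the rest of their group in 2 of 78 combinations of gene and group, where chance gives about 1 in 20. The search covered 26 genes in the 3 groups of 4 libraries. Wildtype at 20°C, where replicate 4 stood apart, was not searched. Replicate 2 of rescued animals at 37°C had 24.8 CPM of *F45D3.4*, above the other 3 libraries, and replicate 3 of wildtype at 37°C had 23.1 CPM of *F28B4.3*.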

How the results depend on the processing

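The 414 differences kept their sign in each of the 27 alternatives in which they were fitted (359 of them under a filter of at least 10 counts in every library). They were picked by passing with these libraries, and the stricter threshold reuses the main fit, so the kept signs are no separate check. The count was 958 with DESeq2's Wald test, 763 with no filter on low counts, 251 with only the 15 libraries, 53 at an adjusted p under 0.01, 815 with depth class as a covariate, 3 in the shallower libraries and 271 without the deeper libraries outside wildtype at 37°C. It ranged from 93 to 1513 with each library left out in turn. The share of positive differences was 79.5% and moved by over 10 percentage points with no filter (66.1%), with at least 10 counts in every library (65.6%) and in the shallower libraries (66.7%). Heat changed 1614 genes in rescued animals and 4087 in wildtype at an adjusted p under 0.01, and 2541 and 3590 in the shallower libraries. Leaving out each library gave 2254 to 3208 genes in rescued animals and 4609 to 6005 in wildtype. With the replicate block 634 genes passed. Deviations of same-numbered libraries at 37°C and 20°C correlated at 0.414, −0.202, −0.076 and −0.074 in rescued animals and 0.134, 0.482 and −0.120 in wildtype. Those of the 2 strains correlated at 0.268, −0.028, 0.035 and 0.225 at 37°C and at −0.009, 0.194 and 0.580 at 20°C, the last being replicate 4. Differently numbered libraries of the 2 strains at 20°C correlated at −0.554 to 0.499. These values do not settle whether the numbers pair the samples, and the main fit did not pair them. Of 100 named genes with a passing difference, 36 passed with any library left out. The causes of these shifts were not tested.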

Other observations

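F-box genes of the *fbxb* family, which encode adaptors that hand proteins to ubiquitin ligases, had a positive difference for 88 of 89 genes tested, with a median of 1.79. None passed, and 42 had an unadjusted p under 0.05. Their summed level was 94.5, 153, 173 and 125.6 CPM in rescued animals at 37°C and 60.1, 74.3, 63.8 and 233 CPM at 20°C, against 114, 195, 201 and 238 CPM in wildtype at 37°C and 172, 260 and 924 CPM at 20°C. Replicate 4 was the highest library at 20°C in both strains. Over all 215 F-box genes tested 1 passed, 13 did with DESeq2 and 58 did without rescued replicate 4 at 20°C.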
